A study of Mus musculus with 12 samples.

Results

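The genes described here are 45 ligands, receptors, intracellular mediators and antagonists of the TGF-beta and BMP family, chosen by name from the 55385 genes of the count table. All 45 had a row, and 42 passed the filter on low counts. Nodal, Gdf5 and Gdf10 did not. They were measured by RNA sequencing in 12 libraries of cultured C57BL/6 mouse cells in 3 groups of 4. The first group is primary cultured normal endometrium cells, taken from mice without a stated age or genetic change and called normal below. The other groups are the murine endometrial cancer cell lines mECC and HPmECC. According to the series' design, some of the cancer cells overexpressed Myc, but the labels do not say which line did. No further allele, treatment or time is spelled out in the labels. Library titles do carry a letter code that is left unexplained: WT marks the HPmECC libraries, DM the mECC libraries and B6 the normal ones. Whether these codes stand for a genotype is not known. Each cancer group is 1 cell line. The labels do not call the 4 libraries of a group separate cultures, so the spread behind each p-value may be technical.

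Ligands of this family are secreted, many of them in a latent form held in the extracellular matrix, and bind pairs of type I and type II receptor kinases. TGF-beta and activin receptors phosphorylate SMAD2 and SMAD3, BMP receptors phosphorylate SMAD1 and SMAD5, and both kinds of SMAD enter the nucleus with SMAD4. Inhibitory SMADs, decoy receptors and secreted antagonists close the circuit as feedback. In the endometrium, activins and BMPs are known for decidualization and embryo implantation, and TGF-beta is known both as a brake on epithelial growth and as an inducer of mesenchymal genes.

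The total count of a library was 16332060 to 24202564 in the normal group, 21755275 to 25821106 in mECC and 18402202 to 26873582 in HPmECC. Myc was read at 106.8 to 117 CPM (a gene's counts relative to the scaled library total) in normal cells, 57.2 to 62.1 in mECC and 248 to 302 in HPmECC. Markers of several cell types moved with the groups. The summed level of 14 epithelial markers was 9988 to 10355 CPM in normal libraries, 1656 to 1695 in mECC and 319.7 to 335 in HPmECC. The 11 stromal fibroblast markers summed to 2201 to 2739.9, 7558 to 8381 and 8682 to 9364 CPM, with Thy1 at 0 in mECC. Abundant genes such as Col3a1 and Vim carry that sum: in each line 5 of the 11 were higher and 6 lower than in normal cells, with median log2 fold changes of -0.64 in mECC and -1.08 in HPmECC. The 8 smooth muscle markers summed to 2294 to 2765, 52.6 to 55.3 and 189 to 252 CPM. The 9 endothelial markers summed to 135 to 152, 8.95 to 9.58 and 27.5 to 31.2 CPM, and Cdh5 and Tek were at 0 in HPmECC. The 7 mesothelial markers summed to 485 to 538, 69.7 to 72.8 and 48.7 to 54.2 CPM, with Wt1 and Upk1b at 0 in mECC and Upk3b, Upk1b and Lrrn4 at 0 in HPmECC. The 11 leukocyte markers summed to 323 to 413, 55.6 to 60.8 and 29.1 to 32.4 CPM, with 4 of them at 0 in mECC and 5 in HPmECC, Tyrobp in both. Normal libraries thus held epithelial and stromal markers together, and all 14 epithelial markers were lower in HPmECC than in mECC. The part of these marker differences in the results below was not tested, and in bulk RNA fewer cells of a type and less RNA per cell cannot be told apart.

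Both cancer lines had more RNA of the TGF-beta ligands and less of most receptors and SMADs than normal cells. Of the 42 members tested, mECC had 13 above and 26 below their level in normal cells (adjusted p under 0.05), where 42.1% of all 15283 genes tested were higher and 44.2% lower. The members' shares were 31% and 61.9%. A change of at least 2-fold was found for 6 higher members (18.4% of all genes) and 15 lower members (22.8%). In HPmECC against normal cells 13 members were higher (43% of all genes) and 24 lower (43.3%), of which 8 (18.5%) and 14 (23%) changed at least 2-fold. Between the lines, 16 members were higher in HPmECC (33.8% of all genes) and 16 lower (34.5%), shares near those of all genes, and 4 (6.73%) and 4 (9.4%) of them changed at least 2-fold. The members' median log2 fold change was -0.57 in mECC and -0.55 in HPmECC against normal cells, beside -0.02 and 0.00 over all genes, and 0.05 beside 0.00 between the lines. Both comparisons with normal cells use the same 4 normal libraries.

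**Figure D1:**
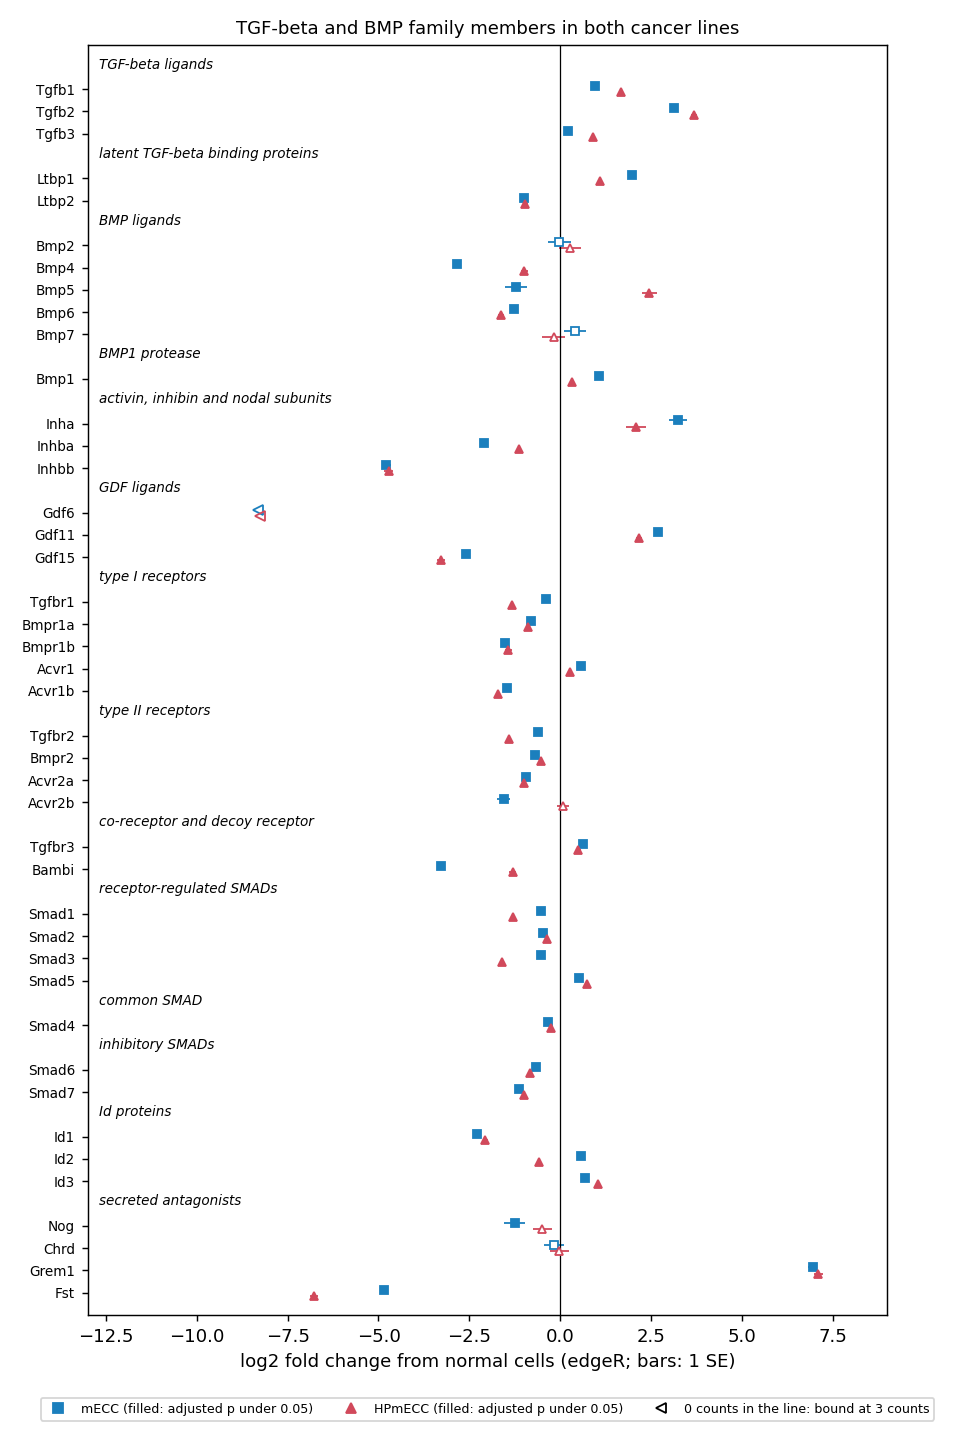
Log2 fold change from normal cells (horizontal axis, edgeR fit, bars 1 SE) of the 42 members tested, by role, with mECC as squares and HPmECC as triangles. Filled symbols passed an adjusted p of 0.05, and the left-pointing symbols mark Gdf6, which had 0 counts in both lines, at a bound set by 3 counts. Grem1 lies farthest to the right, near 7 in both lines, and Fst is at -4.85 in mECC and -6.76 in HPmECC.

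The levels of 6 of the 42 members tested stood in the order normal, mECC, HPmECC with all 3 differences past the threshold. They were Tgfb1, Tgfb2, Tgfb3, Smad5, Id3 and Grem1, a share near the 12.6% of all genes that rose in that order. The reverse order was found for 10 members, namely Bmp6, Gdf15, Tgfbr1, Bmpr1a, Acvr1b, Tgfbr2, Smad1, Smad3, Smad6 and Fst (13.4% of all genes). All 3 TGF-beta ligands were among the first, and both TGF-beta receptor kinases and SMAD3 were among the second. The step from mECC to HPmECC was small for Grem1 (log2 0.15), Bmpr1a (-0.09) and Smad6 (-0.17). It lost its call for Grem1 without mECC replicate 1 or 2 or HPmECC replicate 1, 2 or 3, for Bmpr1a without mECC replicate 1 or 4 or HPmECC replicate 1 or 2, and for Smad6 without mECC replicate 1 or 4 or HPmECC replicate 4. The Grem1 step was also not called with DESeq2 (adjusted p = 0.0847), with library totals (edgeR adjusted p = 0.121) or with limma on either TPM scale (adjusted p = 0.433 and 0.721). Smad5 lost its step with limma on log2(TPM + 0.1) (adjusted p = 0.057).

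Among these ordered members, the ligands Tgfb1 and Tgfb2 and the antagonist Grem1 rose, and the type I receptors Tgfbr1 and Acvr1b fell. The promoters of these 5 are shown as examples of each order. Each is the 250 bases before the RefSeq gene start (GRCm38.p6), read 5′ to 3′ on the gene's strand. Tgfb1 is at chr7:25686752-25687001 on the plus strand, Tgfb2 at chr1:186705990-186706239 on the minus strand, Grem1 at chr2:113758649-113758898 on the minus strand, Tgfbr1 at chr4:47352972-47353221 on the plus strand and Acvr1b at chr15:101173822-101174071 on the plus strand. Capitals mark a match to the E-box of Myc and Max, CACGTG, or to the GC element known from BMP target genes, GGCGCC.
Tgfb1: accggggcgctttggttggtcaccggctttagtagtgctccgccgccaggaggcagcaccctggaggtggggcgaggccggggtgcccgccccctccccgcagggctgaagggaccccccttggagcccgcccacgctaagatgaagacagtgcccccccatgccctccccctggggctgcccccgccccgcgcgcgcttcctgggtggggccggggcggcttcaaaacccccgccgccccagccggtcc
Tgfb2: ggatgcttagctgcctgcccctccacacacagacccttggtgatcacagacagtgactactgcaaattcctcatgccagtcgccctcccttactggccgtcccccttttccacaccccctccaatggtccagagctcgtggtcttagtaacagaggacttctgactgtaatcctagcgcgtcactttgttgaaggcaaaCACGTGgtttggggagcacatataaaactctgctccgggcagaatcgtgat
Grem1: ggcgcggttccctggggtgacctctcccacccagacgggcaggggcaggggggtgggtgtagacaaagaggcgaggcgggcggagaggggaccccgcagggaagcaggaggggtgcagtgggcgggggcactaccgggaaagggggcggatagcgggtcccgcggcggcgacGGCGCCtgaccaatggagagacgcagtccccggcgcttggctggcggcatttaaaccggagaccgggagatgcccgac
Tgfbr1: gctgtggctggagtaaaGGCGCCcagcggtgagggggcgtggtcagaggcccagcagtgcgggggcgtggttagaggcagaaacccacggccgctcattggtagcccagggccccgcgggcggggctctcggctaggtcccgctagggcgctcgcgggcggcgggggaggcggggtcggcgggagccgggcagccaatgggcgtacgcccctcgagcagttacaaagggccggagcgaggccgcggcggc
Acvr1b: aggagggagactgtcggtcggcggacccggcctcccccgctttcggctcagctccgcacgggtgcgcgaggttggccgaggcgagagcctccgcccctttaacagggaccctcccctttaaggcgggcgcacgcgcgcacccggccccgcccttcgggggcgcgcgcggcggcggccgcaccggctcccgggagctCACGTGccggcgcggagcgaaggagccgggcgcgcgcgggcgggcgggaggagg
The E-box began 51 bases before the start of Tgfb2 and 54 before that of Acvr1b. The GC element began 78 bases before the start of Grem1 and 233 before that of Tgfbr1. Neither was found in the Tgfb1 stretch. Of 31 members with a RefSeq promoter entry, 5 held the E-box (Acvr1b, Bmp4, Bmp6, Gdf15 and Tgfb2) and 7 the GC element (Bmpr1a, Bmpr2, Chrd, Grem1, Id2, Smad5 and Tgfbr1). The shares over all 32851 promoter stretches of that length were 6.02% and 9.59%. These shares count single stretches, while a member was counted once if any of its stretches matched, so they are not like for like. Of the members with the E-box, Tgfb2 was higher in both lines than in normal cells, and Acvr1b, Bmp4, Bmp6 and Gdf15 were lower. Of those with the GC element, Grem1 and Smad5 were higher in both lines, and Bmpr1a, Bmpr2 and Tgfbr1 were lower. Id2 was higher in mECC and lower in HPmECC, and Chrd had no called difference. A link of either motif to direction was not tested. The 5 stretches shown held 53.6% to 78.8% G and C, beside a median of 52.4% over all stretches, and the part of this in the matches was not tested. The SMAD palindrome GTCTAGAC was in 0 of the 31 and in 0.167% of all. Each of the 3 motifs reads the same on both strands and none overlaps another, and a match describes letters only.

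TGF-beta ligand RNA was higher in both cancer lines and highest in HPmECC. Tgfb2 rose most, 8.75-fold in mECC and 12.9-fold in HPmECC. Tgfb1 rose 1.96-fold and 3.19-fold, and Tgfb3 1.15-fold and 1.86-fold. Tgfb2 (chr1:186622792-186705989, minus strand) was read at 25.5, 23.1, 20.1 and 15.6 CPM in the normal libraries, 173, 189.9, 172 and 191 in mECC and 276, 265, 268 and 259.7 in HPmECC. The 3 groups did not overlap, and within the normal group the lowest library was at 15.6 CPM. The log2 fold changes were 3.13 ± 0.08 (SE) for mECC (edgeR adjusted p = 3.28e-17), 3.69 ± 0.08 (SE) for HPmECC (2.27e-18) and 0.56 ± 0.06 (SE) between the lines (4.12e-07). Tgfb1 (chr7:25687002-25705077, plus strand), whose product is made by most tissues, was at 45.8, 40.9, 41.9 and 41.6 CPM in normal, 84.2, 85.1, 79.1 and 83.9 in mECC and 133, 139, 132 and 139 in HPmECC cells. Again no library of one group reached into another. Its log2 fold changes were 0.97 ± 0.04 (SE), 1.67 ± 0.04 (SE) and 0.71 ± 0.03 (SE) in the same order, with the largest edgeR adjusted p at 2.38e-12. Tgfb3, whose gene overlaps Ttll5 on the other strand, averaged 50.4 ± 4.58, 58 ± 3.24 and 93.4 ± 3.1 CPM (SD, n = 4). The strand setting is not stated, so whether reads of that pair were told apart is not known.

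The make-up of the ligand RNA differed between normal cells and both lines by more than the spread between libraries. On the length-corrected TPM scale the summed level of the 3 ligands was 61.2 ± 4.89 in normal, 176 ± 8.61 in mECC and 259.9 ± 4.08 in HPmECC cells (mean ± SD, n = 4). Tgfb2 made up 12.3% ± 2.4 of it in normal, 41.7% ± 1.2 in mECC and 38.9% ± 1.3 in HPmECC cells. The Tgfb3 share was 37.1% ± 2.2, 17.6% ± 0.31 and 18.3% ± 0.4, and the Tgfb1 share 50.6% ± 1.1, 40.7% ± 1.4 and 42.8% ± 1.1. As a TPM ratio, Tgfb2 per Tgfb1 was 0.244 ± 0.0483, 1.03 ± 0.0643 and 0.91 ± 0.055, so Tgfb2 was the minor ligand in normal cells and stood near the level of Tgfb1 in both lines.

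**Figure D2:**
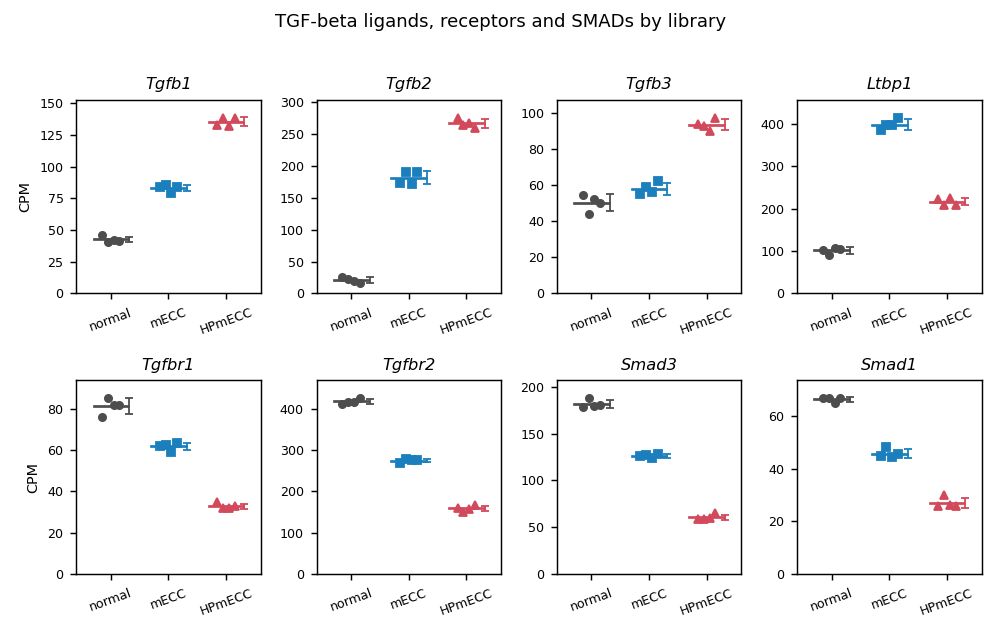
CPM in each library (points), group mean (line) and SD (bar) for the 3 TGF-beta ligands, Ltbp1, both TGF-beta receptor kinases and 2 receptor-regulated SMADs. Ligand levels step up and receptor and SMAD levels step down from normal cells through mECC to HPmECC, with no overlap of the groups in any panel. Groups lie closest for Tgfb3, where the highest normal library is at 54.8 CPM and the lowest mECC library at 54.9 CPM, and Ltbp1 is highest in mECC.

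Latent TGF-beta is tethered in the matrix by latent TGF-beta binding proteins. Ltbp1 (chr17:75005568-75392512, plus strand) was 3.93-fold higher in mECC and 2.14-fold higher in HPmECC than in normal cells, so mECC stood highest. Its levels were 103, 90.4, 106 and 106 CPM in the normal libraries, 385, 398, 397 and 415 in mECC and 223, 209.9, 225 and 209 in HPmECC. The groups were fully separate, with HPmECC below mECC by log2 -0.88 ± 0.04 (SE) (edgeR adjusted p = 1.18e-12). Ltbp2, a relative that binds fibrillin fibres, was lower in both lines, at 90.7 ± 4.28 and 93.3 ± 6.07 CPM against 181 ± 20.9 in normal cells, and the lines overlapped each other. Ltbp2 shares its locus with D030025P21Rik on the other strand. Bmp1, which despite its name is a protease that trims procollagens and cleaves chordin, followed Ltbp1 in being highest in mECC. It was at 159, 155, 158 and 168 CPM in normal, 326, 336, 332 and 345 in mECC and 198, 206, 188 and 212 in HPmECC cells. All 3 groups were separate, and the log2 fold changes were 1.06 ± 0.04 (SE) for mECC, 0.33 ± 0.04 (SE) for HPmECC and -0.73 ± 0.03 (SE) between the lines (edgeR adjusted p at most 8.15e-08).

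BMP ligands did not move as a block. Of the 5 tested, Bmp4 and Bmp6 were lower in both lines, Bmp5 was lower in mECC and higher in HPmECC, and Bmp2 and Bmp7 stayed at or below 1.02 CPM in every library without a called difference. Bmp4 (chr14:46383520-46390669, minus strand) was read at 16.1, 13.9, 18.5 and 17.3 CPM in the normal libraries, 2.31, 2.65, 2.32 and 1.87 in mECC and 9.04, 8.22, 8.66 and 7.37 in HPmECC. Every mECC library lay below every HPmECC library, and both lines lay below normal cells. The fall was 7.14-fold in mECC (edgeR adjusted p = 2.69e-14) and 1.98-fold in HPmECC (1.71e-08). The HPmECC difference from normal was not called on the TPM scale (log2 -0.44, limma adjusted p = 0.0941 with a pseudocount of 1), where Bmp4 was at 19.9 ± 1.29 in normal cells and 14.5 ± 2.38 in HPmECC. Bmp6 (chr13:38345107-38500302, plus strand) was at 18.5, 18, 17 and 17.2 CPM in normal, 8.47, 7.38, 6.89 and 6.64 in mECC and 5.54, 6.11, 5.98 and 5.08 in HPmECC cells. It fell 2.4-fold in mECC and 3.11-fold in HPmECC, with a smaller step between the lines (log2 -0.37, edgeR adjusted p = 0.0014). The Bmp6 gene overlaps Txndc5 on the opposite strand, and whether reads of that pair were told apart is not known. Bmp5 was low throughout, at 0.748 ± 0.202 CPM in normal, 0.326 ± 0.128 in mECC and 4.16 ± 0.305 in HPmECC cells. Its changes from normal had opposite signs in the 2 lines, log2 -1.21 ± 0.30 (SE) in mECC and 2.46 ± 0.21 (SE) in HPmECC, and the lines differed by 3.66 ± 0.23 (SE) (edgeR adjusted p = 6.12e-11). Summed over the 5 ligands, BMP RNA was 29.4 ± 2.63 TPM in normal, 8.98 ± 1.8 in mECC and 19.8 ± 2.29 in HPmECC cells.

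Activin subunit RNA was lower in both cancer lines. Activins are dimers of the beta A subunit, encoded by Inhba, and the beta B subunit, encoded by Inhbb, and with the alpha subunit of Inha the same chains form inhibins. Inhba (chr13:16011851-16031621, plus strand), the ligand gene with the highest TPM among the members in normal cells, was read at 593, 520.4, 616 and 601 CPM in the normal libraries, 132, 136, 135 and 143 in mECC and 269, 261, 265 and 264 in HPmECC. The mECC libraries were lowest, HPmECC stood between, and the groups were separate. The fall was 4.27-fold in mECC (edgeR adjusted p = 4.73e-19) and 2.2-fold in HPmECC (3.06e-15), and HPmECC was 1.94-fold above mECC (4.43e-13). The mean transcript length implied by the ratio of counts to TPM was 21.8% shorter for Inhba in HPmECC than in normal cells, a larger shift than in all but 1.75% of 10272 genes with at least 50 counts in every library. Inhbb (chr1:119415465-119422248, minus strand) was at 41.4, 52, 39.9 and 44.7 CPM in normal, 1.33, 1.78, 1.52 and 1.83 in mECC and 1.45, 1.64, 2.1 and 1.62 in HPmECC cells. Both lines lay far below normal cells (27.5-fold and 26.4-fold) and overlapped each other (log2 0.06 ± 0.18 (SE), edgeR adjusted p = 0.804). Inha stayed low but was higher in both lines, at 0.255 ± 0.10, 2.46 ± 0.169 and 1.11 ± 0.0816 CPM in normal cells, mECC and HPmECC. Nodal had 8 counts in the normal libraries together and 0 in both lines, under the filter.

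Among the GDF ligands, 1 rose, 2 fell and 2 were not tested. Gdf11 (chr10:128882295-128891718, minus strand), a ligand of activin receptors, was at 4.67, 4.83, 5.84 and 4.68 CPM in the normal libraries, 31.1, 31.8, 32.2 and 35.7 in mECC and 22.1, 23, 21.7 and 23.4 in HPmECC. It rose 6.52-fold in mECC and 4.52-fold in HPmECC (edgeR adjusted p = 4.51e-17 and 2.52e-15), and mECC was the higher of the lines in every library. Gdf15 (chr8:70629393-70632456, minus strand), a distant member induced by cell stress, was at 102, 100.2, 109.9 and 98.8 CPM in normal, 18.3, 14.9, 19 and 15.7 in mECC and 13.9, 8.97, 12.5 and 7.99 in HPmECC cells. All mECC libraries lay above all HPmECC libraries, and the falls from normal cells were 6.05-fold and 9.65-fold (edgeR adjusted p = 8.09e-15 and 7.60e-16). Gdf6 (chr4:9844372-9862345, plus strand), a BMP-type ligand, had 10.8, 7.01, 10.8 and 9.46 CPM in the normal libraries and 0 counts in all 8 libraries of the cancer lines. Against a floor of 3 counts over a group, it was at least 320.0-fold lower in mECC and at least 306-fold lower in HPmECC. Gdf5 and Gdf10 stayed under the filter, with 7 and 3 counts in normal cells, 11 and 0 in mECC, and 33 and 1 in HPmECC.

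Receptor RNA was mostly lower in the cancer lines. Of 9 type I and type II receptors, 8 were lower and 1 higher in mECC, and 7 were lower and 1 higher in HPmECC. Of all genes tested, 44.2% were lower and 42.1% higher in mECC, and 43.3% lower and 43% higher in HPmECC. Acvr1, the type I receptor that rose, is known for responses to BMPs. Tgfbr2 (chr9:116084293-116175360, minus strand), the type II receptor that binds TGF-beta directly, had the highest TPM of these receptors in all 3 groups and was at 411, 417, 418 and 426 CPM in the normal libraries, 268, 277, 276 and 276 in mECC and 161, 151, 156 and 167 in HPmECC. Every step down was larger than the spread between libraries, 1.52-fold in mECC (edgeR adjusted p = 2.20e-13) and 2.64-fold in HPmECC (7.97e-19). HPmECC was 1.73-fold below mECC (edgeR adjusted p = 3.59e-14). Its partner Tgfbr1 (chr4:47353222-47414931, plus strand) was at 75.9, 85.3, 81.9 and 82 CPM in normal, 62.2, 62.4, 59.2 and 63.6 in mECC and 34.7, 31.8, 31.8 and 32.7 in HPmECC cells. Tgfbr1 fell 1.32-fold in mECC and 2.49-fold in HPmECC, and the lines were separate, differing by log2 -0.92 ± 0.04 (SE) (edgeR adjusted p = 8.42e-13). The summed TPM of the 3 TGF-beta ligands per TPM of Tgfbr2 was 0.481 ± 0.0419 in normal, 1.75 ± 0.073 in mECC and 4.59 ± 0.20 in HPmECC cells (mean ± SD, n = 4).

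The activin type I receptor Acvr1b (chr15:101174067-101213684, plus strand) was at 78.3, 89.5, 76.7 and 83.3 CPM in the normal libraries, 28.1, 30.6, 31.3 and 29.9 in mECC and 24.4, 24.3, 23.7 and 26.7 in HPmECC. It fell 2.73-fold in mECC and 3.3-fold in HPmECC (edgeR adjusted p = 2.44e-15 and 2.62e-16), and the lines differed by log2 -0.27. Bmpr1b (chr3:141837136-142169425, minus strand), a BMP type I receptor, was at 11.8, 13.4, 12.7 and 14.5 CPM in normal, 3.98, 4.54, 5.0 and 4.81 in mECC and 4.52, 4.83, 5.25 and 5.05 in HPmECC cells. Both lines were about equally far below normal cells (2.86-fold and 2.68-fold) and overlapped each other. The more abundant BMP receptor Bmpr1a averaged 131 ± 4.07, 75.7 ± 2.21 and 71.1 ± 1.92 CPM, and Acvr1 53.8 ± 4.04, 79.9 ± 2.12 and 64.2 ± 1.32 CPM (SD, n = 4). Of the type I receptor TPM, Acvr1 held 23.9% ± 2.4 in normal, 47.7% ± 1.3 in mECC and 47.9% ± 1.3 in HPmECC cells, while Acvr1b held 22.1% ± 1.6, 10.5% ± 0.47 and 11% ± 0.57.

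Among the type II receptors, Bmpr2, which serves BMPs, was at 125 ± 5.01, 76.7 ± 3.88 and 87.2 ± 6.53 CPM in normal cells, mECC and HPmECC. Acvr2a, an activin and BMP receptor whose gene overlaps Orc4 on the other strand, was at 34.5 ± 1.6, 18.1 ± 0.85 and 17.3 ± 1.17 CPM. Its relative Acvr2b was low, 3.67 ± 0.581 CPM in normal, 1.24 ± 0.369 in mECC and 3.88 ± 0.313 in HPmECC cells. Acvr2b was 2.95-fold below normal in mECC (edgeR adjusted p = 3.21e-07), and HPmECC was not called different from normal cells (log2 0.07 ± 0.16 (SE), edgeR adjusted p = 0.691). On the TPM scale Acvr2b was called higher in HPmECC than in normal cells. The log2 fold changes were 0.46 on log2(TPM + 1) and 0.63 on log2(TPM + 0.1) (limma adjusted p = 0.0166 and 0.0302). The co-receptor Tgfbr3, or betaglycan, which presents TGF-beta to its receptors and binds inhibin, was higher in both lines. It averaged 32.5 ± 2.35, 49.9 ± 1.45 and 46.1 ± 4.9 CPM. Bambi, a decoy receptor without a kinase that is itself induced by BMP and TGF-beta, was at 24.4, 21.1, 21.8 and 25 CPM in the normal libraries, 3.04, 2.0, 2.32 and 2.17 in mECC and 9.46, 10.7, 9.03 and 7.99 in HPmECC. As for Bmp4, mECC lay lowest and HPmECC between, with 9.73-fold and 2.48-fold falls from normal cells and a 3.93-fold difference between the lines (edgeR adjusted p = 2.54e-15, 1.80e-10 and 1.00e-10).

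The SMADs of the TGF-beta and activin branch fell, and the BMP branch was split. Smad3 (chr9:63646767-63757994, minus strand), which binds DNA directly in TGF-beta responses, was read at 179, 188, 179.5 and 181 CPM in the normal libraries, 126, 127, 124 and 128 in mECC and 59, 58.5, 59.8 and 64.5 in HPmECC. The fall was 1.44-fold in mECC and 3.01-fold in HPmECC, and the lines differed 2.09-fold (edgeR adjusted p = 7.28e-12, 6.42e-19 and 2.91e-15). Smad2, its partner with much the same receptors, changed less, with levels of 79, 79.2, 78.4 and 78.8 CPM in normal, 57.9, 58.7, 56.5 and 55.8 in mECC and 62.7, 56.9, 65.1 and 61.7 in HPmECC cells. Both lines lay below normal cells (log2 -0.46 ± 0.04 (SE) and -0.36 ± 0.04 (SE)) and overlapped each other. The small rise from mECC to HPmECC (log2 0.10, edgeR adjusted p = 0.0205) lost its call without mECC replicate 3 or 4 or HPmECC replicate 1 or 3 and turned to -0.11 on the TPM scale. The implied mean transcript length of Smad2 was 24.1% longer in HPmECC than in normal cells. Smad3 per Smad2, as a ratio of TPM values, was 1.14 ± 0.052 in normal, 1.2 ± 0.0973 in mECC and 0.575 ± 0.0718 in HPmECC cells.

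In the BMP branch, Smad1 (chr8:79338395-79399518, minus strand) fell and Smad5 rose. Smad1 was at 67, 67, 65.2 and 67 CPM in the normal libraries, 44.9, 48.2, 44.4 and 45.7 in mECC and 25.8, 29.9, 26.1 and 26 in HPmECC. The groups were separate, with falls of 1.45-fold in mECC and 2.46-fold in HPmECC (edgeR adjusted p = 8.34e-10 and 2.49e-15). Smad5 averaged 59.8 ± 3.84, 86.4 ± 3.02 and 100.2 ± 0.695 CPM, a rise of 1.44-fold and 1.67-fold. The TPM ratio of Smad5 to Smad1 was 0.504 ± 0.0674, 0.90 ± 0.0506 and 1.8 ± 0.125 in normal cells, mECC and HPmECC. The summed TPM of the pair moved less than either gene, at 49.6 ± 1.79, 51.5 ± 1.06 and 42.9 ± 1.41. For Smad2 and Smad3 together the sums were 112 ± 4.7, 88.6 ± 3.23 and 58.6 ± 4.03 TPM.

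Smad4, the partner of all receptor-regulated SMADs, was at 92, 101, 93.3 and 97.2 CPM in the normal libraries, 76.1, 75.3, 74.5 and 80.8 in mECC and 82.2, 82.9, 84.9 and 74.7 in HPmECC. It was slightly lower in both lines (log2 -0.32 ± 0.04 (SE) and -0.24 ± 0.04 (SE), edgeR adjusted p = 7.53e-07 and 2.73e-05), and the lines overlapped. These calls were lost when library totals replaced TMM scaling and on the TPM scale, where the group means were 47.7 ± 1.77, 46.8 ± 2.33 and 47.8 ± 1.43. The inhibitory SMADs, which are induced by the pathway and block its receptors, were lower in both lines. Smad7 was at 71.8, 61.7, 68.9 and 68.7 CPM in normal, 31.4, 31.5, 30.7 and 30.5 in mECC and 33.8, 35.6, 34.5 and 31.9 in HPmECC cells. It fell 2.18-fold in mECC and 1.99-fold in HPmECC (edgeR adjusted p = 2.56e-14 and 1.63e-13). Smad6, which acts mainly on the BMP branch, averaged 40.1 ± 2.36, 25.4 ± 1.68 and 22.6 ± 1.91 CPM.

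Id genes encode inhibitors of helix-loop-helix transcription factors and are direct targets of BMP signalling. Their 3 members did not move together. Id1 (chr2:152736251-152737410, plus strand) fell in both lines and was read at 183, 158, 168 and 162 CPM in the normal libraries, 36.2, 34.3, 35.6 and 31.1 in mECC and 42.6, 39.8, 44.7 and 34.4 in HPmECC. Both lines lay below all normal libraries (4.89-fold and 4.17-fold, edgeR adjusted p = 9.01e-17 and 3.73e-16) and overlapped each other. Id3 (chr4:136143497-136145755, plus strand) rose in both, with levels of 117, 104, 115 and 111 CPM in normal, 178, 187, 173 and 176 in mECC and 234, 240.2, 229.7 and 213 in HPmECC cells. Its log2 fold changes were 0.68 ± 0.04 (SE) in mECC, 1.04 ± 0.04 (SE) in HPmECC and 0.36 ± 0.04 (SE) between the lines (edgeR adjusted p at most 1.82e-07). Id2 (chr12:25093799-25097140, minus strand) rose in mECC and fell in HPmECC, at 66, 64.5, 60.3 and 61.2 CPM in the normal libraries, 90.7, 95.3, 91.5 and 96.3 in mECC and 42, 42.1, 44.8 and 40.7 in HPmECC. The 3 groups were separate, the changes from normal were log2 0.57 ± 0.04 (SE) and -0.57 ± 0.04 (SE), and the lines differed by -1.14 ± 0.04 (SE) (edgeR adjusted p = 7.70e-15). The summed Id RNA differed far less than its members, at 558 ± 29.4 TPM in normal, 511 ± 14.8 in mECC and 499 ± 29 in HPmECC cells. Id1 made up 58% ± 0.74 of that sum in normal, 15.4% ± 1.1 in mECC and 17.6% ± 1.2 in HPmECC cells, and Id3 made up 26.9% ± 0.62, 55.7% ± 0.7 and 69.5% ± 1.3.

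**Figure D3:**
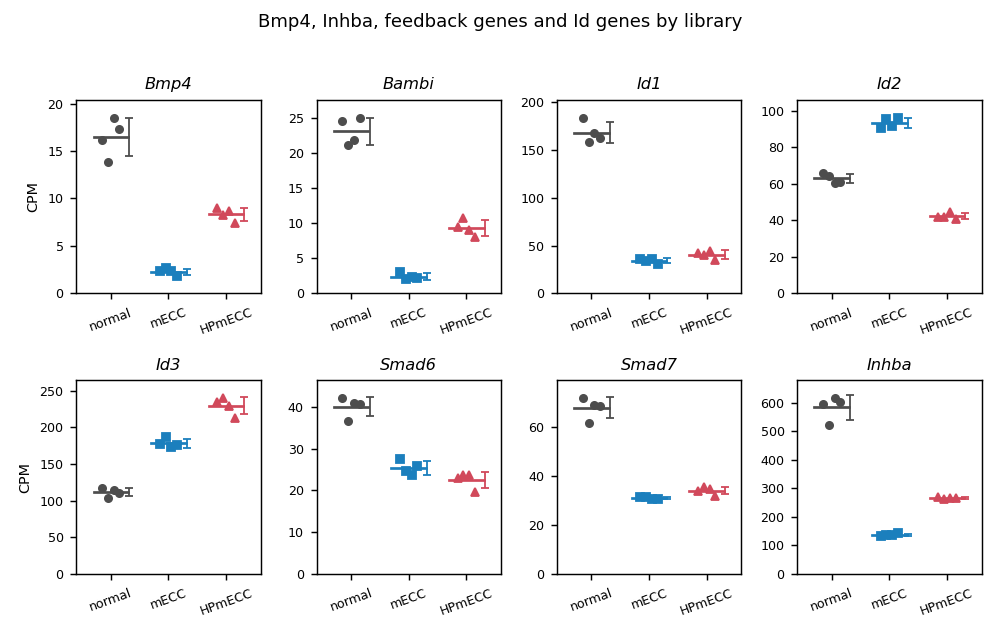
CPM in each library (points), group mean (line) and SD (bar) for Bmp4, the decoy receptor Bambi, the 3 Id genes, both inhibitory SMADs and Inhba. Bmp4, Bambi and Inhba are lowest in mECC and intermediate in HPmECC, Id1 and the inhibitory SMADs are lower in both lines, Id3 steps up, and Id2 is highest in mECC and lowest in HPmECC.

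The secreted antagonists gremlin and follistatin changed in opposite directions. Grem1, encoding the BMP antagonist gremlin, was low in normal cells and rose 124-fold in mECC and 137-fold in HPmECC. Fst, encoding the activin antagonist follistatin, was abundant in normal cells and fell 28.8-fold in mECC and 109-fold in HPmECC. Grem1 (chr2:113746164-113758646, minus strand) was at 0.474, 0.779, 1.16 and 0.735 CPM in the normal libraries, 97.8, 98.8, 102 and 100.1 in mECC and 120.2, 112, 115 and 94.3 in HPmECC. The normal libraries held 59 Grem1 counts in all, and the cancer lines 10162 and 10699. The log2 fold changes were 6.95 ± 0.12 (SE) for mECC and 7.10 ± 0.12 (SE) for HPmECC (edgeR adjusted p = 6.33e-20 and 3.66e-20). The lines overlapped, since the lowest HPmECC library was below all mECC libraries. Fst (chr13:114452290-114458951, minus strand) was at 110.2, 109, 99.1 and 103 CPM in normal, 4.23, 3.31, 3.84 and 3.23 in mECC and 1.11, 1.04, 1.42 and 0.442 in HPmECC cells. Its groups were separate, with log2 fold changes of -4.85 ± 0.09 (SE) and -6.76 ± 0.11 (SE) from normal cells and -1.91 ± 0.19 (SE) between the lines (edgeR adjusted p = 8.03e-20, 1.77e-20 and 5.86e-08). The TPM ratio of Inhba to Fst, the activin beta A subunit and its antagonist, was 2.09 ± 0.302 in normal cells and 13.6 ± 2.15 in mECC. In HPmECC it ran from 95.2 to 314 over the 4 libraries, which held 94 Fst counts in all. Nog and Chrd, encoding the BMP antagonists noggin and chordin, stayed under 2 CPM in every library. Nog was lower in mECC (0.554 ± 0.208 against 1.36 ± 0.384 CPM, edgeR adjusted p = 4.33e-04), and Chrd had no called difference.

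**Figure D4:**
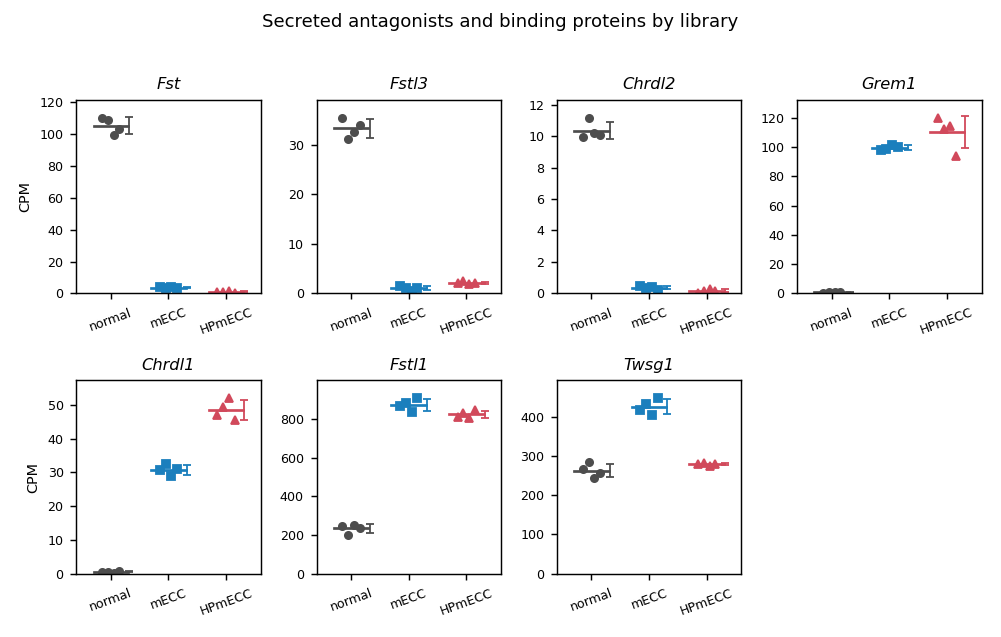
CPM in each library (points), group mean (line) and SD (bar) for 7 secreted antagonists and binding proteins, of which Fst, Fstl3 and Chrdl2 are lower in both lines and Grem1, Chrdl1, Fstl1 and Twsg1 higher. Fst, Fstl3 and Chrdl2 are near the axis in both lines, Grem1 and Chrdl1 are near it in normal cells, and Twsg1 is highest in mECC, with HPmECC overlapping normal cells.

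Other genes of the pathway were taken from 6 lists holding 109 genes, of which 91 were tested. In mECC 34 were higher and 48 lower than in normal cells, in HPmECC 42 were higher and 45 lower, and between the lines 42 were higher and 32 lower in HPmECC. These are 37.4% and 52.7% in mECC, where all genes gave 42.1% and 44.2%, 46.2% and 49.5% in HPmECC (43% and 43.3%), and 46.2% and 35.2% between the lines (33.8% and 34.5%). Among 23 other secreted regulators tested, 10 rose and 12 fell in mECC, and 12 rose and 11 fell in HPmECC. Chrdl1, a chordin-like BMP antagonist, was like Grem1 low in normal cells and higher in both lines, at 0.609, 0.623, 0.331 and 0.735 CPM in the normal libraries, 30.7, 32.6, 29 and 31 in mECC and 47, 49.5, 52 and 45.4 in HPmECC. Its log2 fold changes were 5.72 ± 0.12 (SE) and 6.37 ± 0.11 (SE) (edgeR adjusted p = 6.72e-19 and 4.53e-20). Fstl3, a follistatin-like activin antagonist, fell in both lines as Fst did, with 33.2 ± 1.82 CPM in normal, 1.05 ± 0.423 in mECC and 2.12 ± 0.246 in HPmECC cells. Tll1, a protease related to Bmp1, fell from 78.5 ± 2.89 CPM to 2.46 ± 0.319 and 0.396 ± 0.148.

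Itgb6, from the same list, a subunit of an integrin that activates latent TGF-beta and an epithelial gene, was at 50.5 ± 2.93 CPM in normal cells, 4.93 ± 0.549 in mECC and 0 counts in every HPmECC library, at least 1632-fold lower than in normal cells. Epithelial markers fell along with it (14 of 14 in HPmECC, 13 of 14 in mECC), and their part was not tested. Ltbp3, Ltbp4, Lrrc32 and Nrros, which anchor latent TGF-beta in the matrix or at the cell surface, differed in the order of the groups. Ltbp3 and Lrrc32 were highest in mECC, at 99.1 ± 4.68, 352 ± 15.1 and 184 ± 11.9 CPM for Ltbp3 and 44.5 ± 3.11, 139.6 ± 4.8 and 68.4 ± 7.8 CPM for Lrrc32. Ltbp4 was highest in HPmECC (6.5 ± 0.938, 16.2 ± 1.16 and 37.2 ± 2.12 CPM), and Nrros fell from 2.18 ± 0.296 CPM in normal cells to means of 0.0181 and 0.0291 in the lines. All 9 leukocyte markers tested were also lower in both lines, and their part in the fall of Nrros was not tested. Bgn, a matrix proteoglycan that binds TGF-beta, exceeded its mECC level 17.4-fold in HPmECC, at 335 ± 30.8, 50.4 ± 1.68 and 878 ± 25 CPM (edgeR adjusted p = 2.41e-20). Fbn1, encoding the fibrillin to which latent complexes attach, did so 2.54-fold (edgeR adjusted p = 1.47e-09).

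Of 5 other receptors and co-receptors tested, 2 rose and 3 fell in each line. These are 40% and 60%, where all genes gave 42.1% and 44.2% in mECC and 43% and 43.3% in HPmECC. Acvrl1 and Eng, a type I receptor and a co-receptor known best from endothelium, fell, Acvrl1 from 56.7 ± 2.68 CPM to 0.149 ± 0.105 in mECC and 1.79 ± 0.276 in HPmECC, and Eng from 21.6 ± 2.51 to 4.09 ± 0.36 and 6.36 ± 0.494. All 7 endothelial markers tested were lower in mECC, and 5 of 7 in HPmECC, and their part was not tested. Vasn, a membrane protein that traps TGF-beta, rose 3.68-fold in mECC and 2.83-fold in HPmECC. Rgma, a BMP co-receptor, rose 1.44-fold and 3.46-fold. Of 6 other family ligands tested, 3 rose and 2 fell in mECC (50% and 33.3%), and 1 rose and 2 fell in HPmECC (16.7% and 33.3%). Gdf7, Bmp3 and Lefty1 rose in mECC but stayed low, at 3.44 ± 0.879, 2.34 ± 0.449 and 3.38 ± 0.41 CPM against 0.224 ± 0.0721, 0.282 ± 0.157 and 0.704 ± 0.168 in normal cells. Bmp8b and Bmp8a fell in both lines, from 8.48 ± 0.47 and 7.25 ± 0.073 CPM in normal cells to 1 Bmp8b count in each line and 0.605 ± 0.059 and 0.725 ± 0.24 CPM of Bmp8a. Bmp8b was lower in mECC by a ratio of 863 (95% counting interval 154 to 34156). These near-identical neighbours share reads, so how their counts divide is uncertain.

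Among 17 other intracellular regulators, 3 rose and 12 fell in mECC, and 4 rose and 13 fell in HPmECC. These are 17.6% and 70.6% in mECC (42.1% and 44.2% of all genes), and 23.5% and 76.5% in HPmECC (43% and 43.3%). Tgif1 and Tgif2, related SMAD corepressors, moved in opposite directions. Tgif1 was at 203 ± 5.26, 68.5 ± 1.35 and 56.8 ± 1.82 CPM and Tgif2 at 12.9 ± 1.4, 35.1 ± 2.72 and 55.5 ± 1.76 CPM. Wwp1, a ubiquitin ligase that targets the receptors, fell 2.95-fold and 2.55-fold. Smad9, the remaining BMP-branch SMAD, rose from 4.63 ± 0.569 CPM to 14.6 ± 0.574 in mECC and 9.46 ± 1.67 in HPmECC. Ppm1a, a phosphatase of receptor-regulated SMADs, was below normal in both lines and 1.32-fold higher in HPmECC than mECC.

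Genes known to respond to TGF-beta did not share a direction. Of 28 on the list, 10 rose and 15 fell in mECC, 14 rose and 14 fell in HPmECC, and 18 were higher and 7 lower in HPmECC than in mECC. As shares these are 35.7% and 53.6%, 50% and 50%, and 64.3% and 25%, beside the shares of all genes given above. The list's median log2 fold change was -0.46 in mECC and -0.00 in HPmECC, with Itgb6 at its bound, beside -0.02 and 0.00 over all genes. Ccn2, the connective tissue growth factor gene, fell. It averaged 1730.2 ± 79.5, 217 ± 9.51 and 174 ± 5.81 CPM. Tgfbi, a matrix protein named for its induction by TGF-beta, rose in both lines, at 4.88, 7.48, 7.6 and 5.05 CPM in normal, 180.2, 202, 182 and 204 in mECC and 294, 305, 292 and 342 in HPmECC cells. Its log2 fold changes were 4.93 ± 0.10 (SE) and 5.62 ± 0.09 (SE), and the groups were separate (edgeR adjusted p = 2.39e-19 and 2.58e-20).

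Contractile genes of that list fell in both lines. Tagln was at 1267 ± 111 CPM in normal cells and 1.12 ± 0.322 and 1.45 ± 0.299 in mECC and HPmECC, and Cnn1 at 40.6 ± 4.37, 0.259 ± 0.0985 and 1.16 ± 0.13. Both are also among the 8 smooth muscle markers, all of which were lower in both lines, and the part of that cell type in the difference was not tested. The gelatinase genes Mmp9 and Mmp2 were 15.7-fold and 7.54-fold higher in HPmECC than in mECC. Mmp9 was below normal in both lines (114 ± 7.84, 0.328 ± 0.0981 and 5.18 ± 0.391 CPM), while Mmp2 was below normal in mECC and above it in HPmECC (111 ± 9.8, 34.6 ± 1.33 and 260.4 ± 6.31 CPM). Snai2, Zeb1 and Zeb2, repressors of epithelial genes, rose in both lines, by log2 4.50, 2.04 and 2.38 in mECC and 3.40, 2.58 and 2.22 in HPmECC. Their relative Snai1 rose 1.36-fold in mECC and 6.13-fold in HPmECC.

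BMP response genes were split as well. Of 16, 7 rose and 6 fell in mECC, and 10 rose and 5 fell in HPmECC, with median log2 fold changes of 0.31 and 1.01. Over all genes the medians were -0.02 and 0.00. The shares were 43.8% and 37.5% in mECC, near the 42.1% and 44.2% of all genes. In HPmECC they were 62.5% and 31.2%, beside 43% and 43.3% of all genes. Msx1 and Dlx5, homeobox genes, fell. Msx1 was at 21.6 ± 1.02 CPM in normal cells and had 1 count in mECC and 3 in HPmECC, a ratio of 2196 (95% counting interval 394 to 86781) between normal cells and mECC. Dlx5 was at 71.6 ± 2.09, 0.452 ± 0.227 and 5.66 ± 0.343 CPM. Gata3 rose from 1.26 ± 0.397 CPM to 18.1 ± 1.64 and 11.5 ± 1.44. Sp7, an osteoblast transcription factor, had 2 counts in normal cells and was at 3.76 ± 0.692 CPM in mECC and 10.1 ± 1.24 in HPmECC. The ratio of HPmECC to normal cells was 372 (95% counting interval 103 to 3078). Tnfrsf11b, or osteoprotegerin, and Tbx3 were 4.9-fold and 4.85-fold higher in HPmECC than in mECC (edgeR adjusted p = 2.15e-18 and 6.30e-12).

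**Figure D5:**
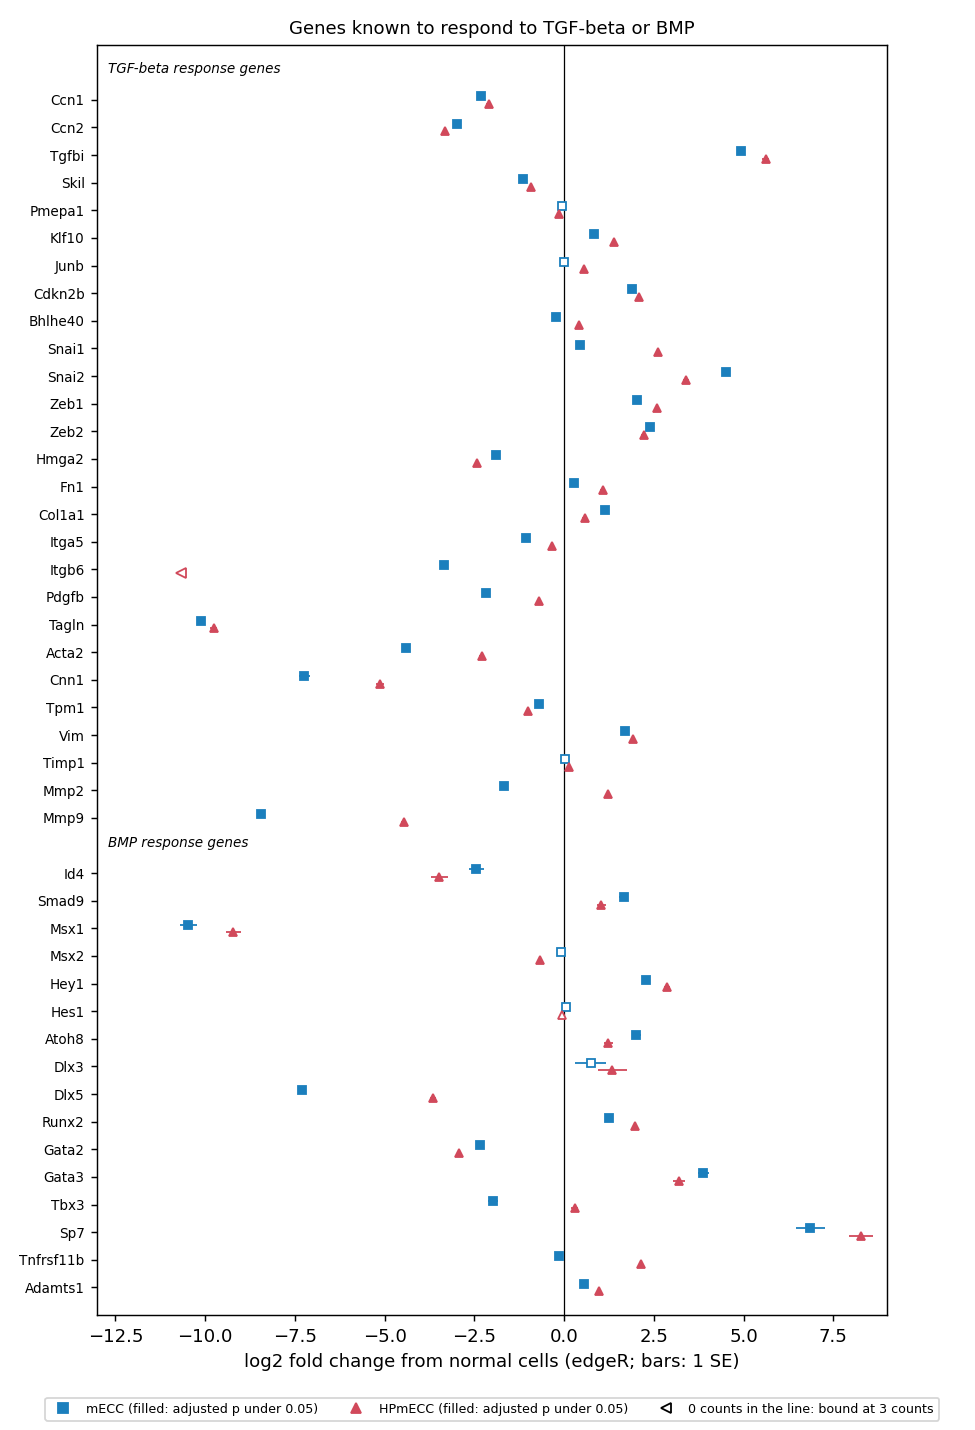
Log2 fold change from normal cells (horizontal axis, edgeR fit, bars 1 SE) of 27 of the 28 listed genes known to respond to TGF-beta and 16 known to respond to BMP, with mECC as squares and HPmECC as triangles, filled where the adjusted p was under 0.05. Both lists spread to each side of 0, from Tagln and Msx1 on the left to Tgfbi and Sp7 on the right, and the left-pointing symbol marks Itgb6 in HPmECC, which had 0 counts, at a bound set by 3 counts.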

How the data were processed

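RNA of the 12 samples was purified with RNeasy kits and made into TruSeq mRNA libraries, per the labels' protocols. Per the submitters' processing notes the authors used Trim Galore, STAR 2.6.1a, RSEM 1.3.1 and build GRCm38; which annotation release and strand setting they chose is not stated there. The deposited table of expected counts (RSEM estimated counts per gene) held whole numbers and was used as it stands. TPM values deposited by the authors correct for transcript length and share 1 sum in every library, and served for comparisons between genes, for implied transcript length and for alternatives. FPKM values were not used. Since RSEM divides shared reads by estimated abundance, near-identical genes are uncertain.

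Of 55385 gene identifiers 55144 had a symbol. Coordinates are from GENCODE M21, which held all 45 members. Groups came from the sample titles. The test was the quasi-likelihood test of edgeR 4.0.16 (R 4.3.3, TMM factors, filterByExpr with a minimum count of 10) over all 12 libraries, with 1 coefficient per group and Benjamini-Hochberg adjustment over 15283 genes at 0.05. A log2 fold change's SE is its size over the square root of F. CPM carry the TMM scaling. Values after ± give the SD of 4 libraries except where SE is written. The biological coefficient of variation was 4.27%. In simulated counts for HPmECC against mECC, 90% of genes raised 1.5-fold were called, 87% lowered 1.5-fold, 98% raised 2-fold, and 0.0816% of unchanged genes. There 14701 of 14897 genes were unchanged, unlike in these data, so scaling with most genes changed was not tested. Floors and intervals cover counting error only. Alternatives were other scaling, filters, DESeq2 1.42.0, limma 3.58.1 on log2(TPM + 1) and log2(TPM + 0.1), 2-group fits, a replicate block and each library left out; those of the members ordered over all 3 groups were added after seeing the data.

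The members, lists, tests and alternatives were chosen with earlier results of these data known. A member was given library by library if it held at least 5 CPM in its highest group and changed at least 2-fold in 1 comparison, up to 3 per role; Smad2, Smad3, Smad4 and Tgfbr2 were given in any case. From each other list, up to 3 genes per comparison with the largest called change and at least 5 CPM were named. Ccn2, Snai2, Zeb1, Zeb2, Ltbp3, Ltbp4, Lrrc32, Nrros, Gdf7, Bmp3, Lefty1, Fstl1, Twsg1 and Chrdl2 were named after their values were seen. Some genes of the lists are counted but not reported here by name, and 1 of them is left out of the plot of response genes. Promoters came from RefSeq, and protein sequences were not used here.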

Additional observations from a re-analysis of the deposited data

Results flagged for a closer look

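Among 124 member and group combinations with 4 libraries, 7 had a library set apart from the other 3 by a gap above Dixon's 95% critical value, and chance marks about 1 in 20. The low ones were Ltbp1 in normal replicate 2 at 90.4 CPM, beside 103 to 106 CPM in the others, Tgfbr2 in mECC replicate 1 at 268 CPM and Smad1 in normal replicate 3 at 65.2 CPM. The high ones were Bmp7 in HPmECC replicate 3 at 0.945 CPM, Gdf11 in normal replicate 3 at 5.84 CPM, Smad1 in HPmECC replicate 2 at 29.9 CPM and Smad5 in HPmECC replicate 2 at 101 CPM. Without HPmECC replicate 3, Bmp7 was lower in HPmECC than in mECC (log2 -0.89, edgeR adjusted p = 0.00976), a difference not called with it.

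Bmp5 and Id2 changed from normal cells in opposite directions in the lines. The change in HPmECC less that in mECC was log2 3.66 for Bmp5 (edgeR adjusted p = 6.12e-11) and -1.14 for Id2 (edgeR adjusted p = 7.70e-15). Every HPmECC library of Bmp5 was above every normal library, and every mECC library was below.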

How the results depend on the processing

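The calls against normal cells were the same for all members with a value under median-of-ratios factors, no filter, a minimum of 10 CPM, DESeq2, the replicate block and fits of 2 groups. Library totals put the median log2 fold change of all genes at 0.22 in mECC and 0.20 in HPmECC, from -0.02 and 0.00, and turned the split of all genes from 6436 higher and 6748 lower to 7866 and 5453 in mECC, and from 6575 and 6625 to 7725 and 5583 in HPmECC. Members' calls were the same for 40 of 42 in mECC (Smad4 lost, Bmp7 gained) and 41 of 42 in HPmECC (Smad4 lost). With limma on log2(TPM + 1) the splits were 7554 and 5260, and 7345 and 5481. On TPM, members at least 2-fold lower in mECC were 9 in place of 15 with a pseudocount of 1, and members higher in HPmECC than in mECC 10 in place of 16 with 0.1. With at least 10 CPM, 2 in place of 4 members were at least 2-fold higher in HPmECC than in mECC, since fewer were tested. On TPM, Smad4 in HPmECC against normal went from -0.24 to 0.0015 with either pseudocount, and Smad2 between the lines from 0.10 to -0.11 and -0.12; the cause was not tested. Members ordered upward over the groups were 4 to 6 (Grem1 and Smad5 were lost) and downward 8 to 10. Leaving out 1 library gave 13 to 17 members higher and 14 to 18 lower in HPmECC than in mECC, where differences of Smad2, Smad6, Smad7, Bmpr1a, Nog and Grem1 lost their calls. The labels do not say that replicate numbers pair the libraries. Same-numbered libraries of different groups correlated at -0.027 to 0.080 in their deviations from group means, and those of different numbers at -0.048 to 0.043. Of the same-numbered pairs, 0 of 12 were over 0.1, and 6 of 12 libraries correlated best with their own number. With a replicate block, mECC had 6405 genes above and 6718 below normal cells (6436 and 6748 without), and all 42 members had the same calls in each comparison. The 3-count floor limits folds of genes at 0.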
